A study of Mus musculus with 9 samples.

Results

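Cholesterol synthesis, uptake and export were read through 31 named genes, which the module lists by symbol and which were found through their Ensembl identifiers. All 31 were among the 43629 genes of the deposited table, and all 31 were among the 15948 genes with enough reads to be tested. By role, 18 encode enzymes of cholesterol synthesis, 5 encode proteins that sense sterols and drive the synthesis genes, 5 act in export and storage, and 3 carry cholesterol inside the cell. RNA was sequenced from c-Kit-selected bone marrow of C57BL/6 mice in 9 libraries, 3 for each of 3 genotypes, and every mouse, WT included, had received pIpC, a synthetic double-stranded RNA. MYH11 denotes Cbfb+/MYH11 mice, with 1 allele encoding CBFβ-SMMHC, the fusion of a core binding factor subunit with a smooth muscle myosin tail known from inv(16) leukaemia. mDE denotes Cbfb+/mDE mice, and the study's title concerns the C-terminal multimerization domain of the fusion, but the labels describe this allele no further. WT denotes mice with genotype WT. The sources used here give neither ages nor the number of mice behind a library. Whether each library was made from another animal is not stated either, so the p-values rest on a spread between libraries that could be technical.

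Cells make cholesterol from acetyl-CoA through mevalonate, squalene and lanosterol. When sterols in the endoplasmic reticulum are low, Scap escorts the SREBP transcription factors to the Golgi for cleavage, and the freed factors raise synthesis and uptake genes. When sterols are high, Insig proteins hold Scap back, and the liver X receptors, which bind oxysterols, raise export genes such as Abca1 and Abcg1. Macrophages are known for strong export and for storage of cholesterol as esters, because they take up lipoproteins and dead cells.

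The libraries held 39300366 to 50073097 reads, and values are the deposited normalised reads, which are counts divided by a size factor for the library. Myh11, the gene that supplies the tail of the fusion, stood at 219, 194 and 176 normalised reads in MYH11, 28.7, 41.4 and 43.8 in mDE and 7.72, 8.64 and 4.70 in WT, highest in MYH11 and lowest in WT without overlap. Kit, the receptor used for selection, was present in every library but 2.12-fold lower in MYH11 (3538 ± 321) than in WT (7504 ± 253; mean ± SD, n = 3 each). Marker genes of several cell types differed as well. The 12 late neutrophil markers took 0.440% to 1.99% of reads in MYH11, 11.6% to 14.6% in mDE and 10.4% to 12.2% in WT, and all 12 fell in MYH11 against WT. The 13 monocyte and macrophage markers took 0.493% to 0.549% in MYH11, 0.165% to 0.182% in mDE and 0.147% to 0.154% in WT, and 10 rose and 2 fell in MYH11 against WT. Among the other marker lists, the rises and falls in MYH11 against WT numbered 0 and 7 of 8 early granulocyte genes, 7 and 4 of 11 mast cell, basophil and eosinophil genes, 6 and 1 of 8 dendritic cell genes, 4 and 3 of 10 erythroid genes, 2 and 3 of 6 megakaryocyte genes, 0 and 1 of 7 B cell genes, 0 and 5 of 7 T and NK cell genes, 3 and 1 of 7 stromal genes and 0 and 10 of 12 cell cycle genes. Of all genes tested, 59.8% were called in that comparison, 32.0% up and 27.8% down, so a list such as the erythroid one did not stand far from all genes. In such bulk samples, a change in the number of cells of a type and a change in RNA per cell cannot be told apart.

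The first comparison set the full-length fusion allele against the normal genotype. Of the 8 genes of export, storage and transport, 6 rose and 1 fell in MYH11, while the synthesis enzymes went both ways with more falls than rises. Of the 31 genes, 10 rose and 8 fell against WT at a limma adjusted p under 0.05, and 13 did not pass. These 58.1% compare with 59.8% of all genes tested, of which 32.0% rose and 27.8% fell, so the share called among the cholesterol genes lay near that of all genes. The libraries of the genotypes did not overlap for 22 of the 31 genes (71.0%), 13 of them higher in MYH11, against 68.7% of all genes. The median log2 fold change of the 31 genes was 0.10, against 0.02 for all genes, with a range from -1.49 (Hsd17b7) to 2.83 (Abca1). By role, export and storage had 4 rises and 1 fall of 5 (median 1.08), transport 2 rises of 3 (median 0.95), sterol sensing 2 rises of 5 (median 0.10), and synthesis 2 rises and 7 falls of 18 (median -0.01). These directions depend on the scaling. Dividing by total reads, an alternative added after the data were seen, raised the median of all genes by 0.23 in MYH11 against WT and gave 19 rises and 3 falls among the 31 genes, against 7105 rises and 2530 falls among all genes where the deposited scaling gave 5105 and 4431.

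Abca1 (ENSMUSG00000015243, chr4:53030787-53159895), the transporter that loads cholesterol and phospholipid onto apolipoprotein A-I, showed the highest fold change of the set. It stood at 3561, 1926 and 3808 normalised reads in MYH11, 473, 464 and 428 in mDE and 376, 483 and 393 in WT. The lowest MYH11 library lay far above every mDE and WT library, and the mDE and WT libraries overlapped. In MYH11 it was 7.42-fold higher than in WT (log2 fold change 2.83 with SE 0.23, limma adjusted p = 7.36e-06) and 6.81-fold higher than in mDE (limma adjusted p = 1.12e-05). Positions here are those of GENCODE M21 on GRCm38.

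Abcg1 (ENSMUSG00000024030, chr17:31057675-31117988), which passes cholesterol on to high-density lipoprotein, behaved like Abca1 across the genotypes. Its values were 6216, 4239 and 7768 in MYH11, 799, 1051 and 1360.4 in mDE and 1046, 1195 and 1038 in WT. It was 5.56-fold higher in MYH11 than in WT (log2 fold change 2.43 with SE 0.23, limma adjusted p = 2.03e-05), again with no overlap. Replicate 2 was the lowest MYH11 library for both transporters, and it also held the most reads of the neutrophil gene Ly6g among the MYH11 libraries (572, 1016 and 199). Whether the neutrophil reads had a part in that difference was not tested.

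Nr1h3 (ENSMUSG00000002108, chr2:91184061-91202834) encodes liver X receptor alpha, which is known for its expression in macrophages and liver. It stood at 455, 270.2 and 408 normalised reads in MYH11, 123, 131 and 129 in mDE and 129, 216 and 190.3 in WT. Every MYH11 library was above every other library, and Nr1h3 was 2.12-fold higher than in WT (log2 fold change 1.08 with SE 0.23, limma adjusted p = 0.00293). Nr1h2 (ENSMUSG00000060601, chr7:44549616-44553951), the widely expressed liver X receptor beta, moved the other way at 2903, 2929 and 2781 in MYH11, 3317, 3449 and 3459 in mDE and 3045, 3328 and 3108 in WT. This fall of 1.10-fold against WT was the smallest called change of the set (log2 fold change -0.14 with SE 0.05, limma adjusted p = 0.0386), and it turned to a log2 fold change of 0.09 when libraries were scaled by total reads. Its call also ended without MYH11 replicate 1 or 3 or WT replicate 2 or 3 (limma adjusted p from 0.0669 to 0.143).

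Soat1 (ENSMUSG00000026600, chr1:156424525-156474331) makes the cholesterol esters that are stored in lipid droplets. It stood at 6371, 6494 and 6559.9 in MYH11, 3649.8, 3936 and 4978 in mDE and 3227, 3501 and 3149 in WT. The 3 genotypes formed separate ranges, with the mDE libraries between the MYH11 and WT libraries. The difference was 1.97-fold for MYH11 against WT (log2 fold change 0.98 with SE 0.10, limma adjusted p = 3.55e-05), and that for mDE against WT did not pass (log2 fold change 0.34 with SE 0.10, limma adjusted p = 0.132).

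Npc1 and Npc2 move lipoprotein cholesterol out of lysosomes, with Npc2 carrying it inside the lysosome and Npc1 taking it through the membrane. Npc1 (ENSMUSG00000024413, chr18:12189692-12236400) stood at 3990.0, 3104 and 3491 in MYH11, 1459, 1611 and 1672 in mDE and 1239, 1093 and 1412 in WT, which made MYH11 2.83-fold higher than WT (log2 fold change 1.50 with SE 0.11, limma adjusted p = 5.41e-06). Npc2 (ENSMUSG00000021242, chr12:84754562-84773152) stood at 17525, 15783 and 17144 in MYH11, 8148, 8844 and 9468 in mDE and 8887, 8357 and 8807 in WT, a rise of 1.94-fold in MYH11 against WT (log2 fold change 0.95 with SE 0.07, limma adjusted p = 3.53e-06). The MYH11 libraries were above all others for both genes. Npc1 shares 511 exon bases on the opposite strand with Rmc1, which averaged 1691 in MYH11 and 1513 in WT, and the sources used here do not say whether counting used the strand. Stard4 (ENSMUSG00000024378, chr18:33199355-33213862), a sterol carrier of the cytosol, averaged 1799 ± 35.2 in MYH11, 1844 ± 63.2 in mDE and 1621 ± 150.3 in WT and did not pass (log2 fold change 0.15 with SE 0.07, limma adjusted p = 0.0829).

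**Figure D1:**
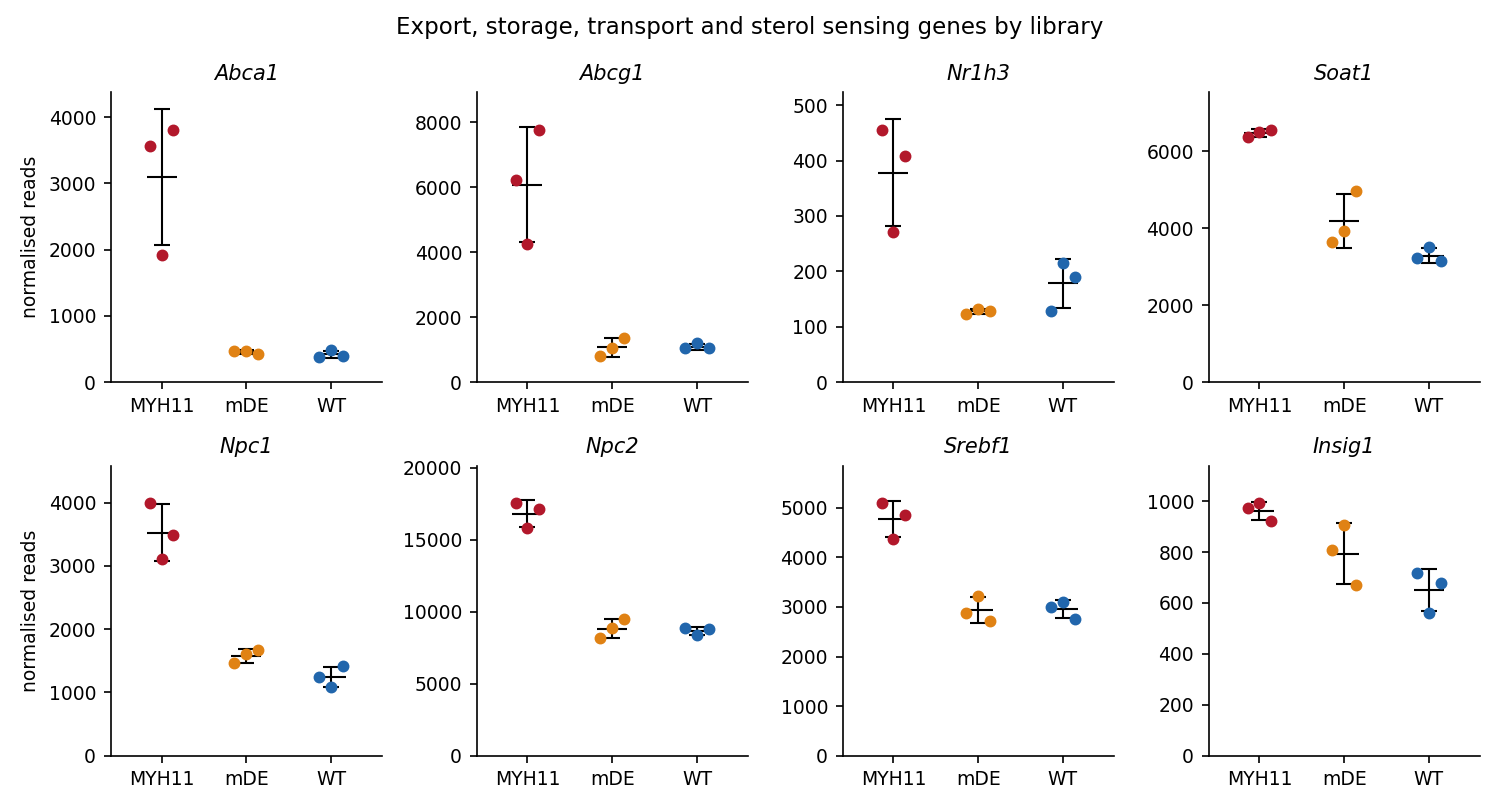
Normalised reads (y axis, linear, from 0) of 4 export and storage genes, 2 transport genes and 2 sterol sensing genes in each library of MYH11, mDE and WT. Points are libraries, and bars give the mean and SD of 3 libraries. The panels show the genes of these roles that were called up in MYH11 against WT. Nr1h2, which fell, and Stard4, Srebf2, Scap and Insig2, which did not pass, are not shown. In all 8 panels every MYH11 library lies above every mDE and WT library, most widely for Abca1 and Abcg1.

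Of the 13 monocyte and macrophage markers, 10 rose, 2 fell and 1 (Ly6c2) did not pass in MYH11 against WT (limma adjusted p = 0.0831). The falls were those of Cx3cr1, which averaged 201 ± 19.1 normalised reads in MYH11, 944 ± 285 in mDE and 939.7 ± 135 in WT (limma adjusted p = 2.24e-05), and Vcam1, which averaged 6679 ± 1509 in MYH11, 10296 ± 984 in mDE and 12002 ± 896 in WT (limma adjusted p = 0.00101). Among those that rose, Csf1r averaged 27822 ± 3911 normalised reads in MYH11, 5735 ± 1103 in mDE and 4319.9 ± 459 in WT, and Cd68 averaged 6622 ± 1008 in MYH11, 1829.6 ± 207 in mDE and 1503 ± 196 in WT. Markers of mast cells, basophils and eosinophils took 0.235% to 0.354% of reads in MYH11, 0.0478% to 0.0756% in mDE and 0.0684% to 0.114% in WT, and those of dendritic cells took 0.162% to 0.185% in MYH11, 0.0232% to 0.0445% in mDE and 0.0247% to 0.0389% in WT. The part of these cell types in the rise of export, storage and transport genes was not tested.

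Among the sterol sensing genes, Srebf1 and Insig1 rose in MYH11. Srebf1 (ENSMUSG00000020538, chr11:60199089-60222581) encodes SREBP-1, which acts mainly on fatty acid synthesis and whose SREBP-1c form is a liver X receptor target. It stood at 5089.9, 4372 and 4854 in MYH11, 2874, 3229.8 and 2708 in mDE and 3009, 3100.1 and 2747 in WT, so that all MYH11 libraries exceeded all others, by 1.62-fold against WT (log2 fold change 0.69 with SE 0.08, limma adjusted p = 8.65e-05). Insig1 (ENSMUSG00000045294, chr5:28071363-28078662), the retention protein that is itself raised by SREBPs, stood at 972, 991 and 922 in MYH11, 807, 907 and 669 in mDE and 718, 559 and 678 in WT. It rose 1.48-fold in MYH11 against WT (log2 fold change 0.57 with SE 0.12, limma adjusted p = 0.00335), while its mDE libraries overlapped those of WT.

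The RNA of Srebf2, which encodes SREBP-2, the main driver of synthesis genes, did not pass in MYH11 against WT. Srebf2 (ENSMUSG00000022463, chr15:82147181-82205379) averaged 5359 ± 385 in MYH11, 5955 ± 429 in mDE and 4997 ± 414 in WT, and its MYH11 against WT difference had a 95% interval of -0.08 to 0.29 on the log2 scale (limma adjusted p = 0.307). Scap (ENSMUSG00000032485, chr9:110333288-110384950), the escort protein, averaged 2324 ± 131 in MYH11, 2056 ± 96.6 in mDE and 2425 ± 114 in WT (interval -0.20 to 0.08, limma adjusted p = 0.419). Insig2 (ENSMUSG00000003721, chr1:121304353-121332589), the second retention protein, averaged 624 ± 16.4 in MYH11, 690.1 ± 68.9 in mDE and 651 ± 8.96 in WT (interval -0.24 to 0.12, limma adjusted p = 0.538). All 3 intervals included 0. Under scaling by total reads Srebf2 was called higher in MYH11 than in WT (limma adjusted p = 0.00859), while Scap and Insig2 were not called. Protein cleavage, on which SREBP activity depends, is not measured by RNA.

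Among the synthesis enzymes, the largest falls in MYH11 came late in the pathway, at the removal of the methyl groups of lanosterol. Hsd17b7 (ENSMUSG00000026675, chr1:169949535-169969241), the 3-ketosteroid reductase of that step, stood at 244, 245 and 191 in MYH11, 849.9, 604 and 547 in mDE and 630.1, 575 and 697 in WT. No MYH11 library reached the lowest of the other libraries, and the level was 2.80-fold lower than in WT (log2 fold change -1.49 with SE 0.17, limma adjusted p = 6.79e-05) and 2.95-fold lower than in mDE (limma adjusted p = 6.08e-05). Msmo1 (ENSMUSG00000031604, chr8:64718139-64733792), the C4-methyl sterol oxidase that acts before Hsd17b7, stood at 814, 801 and 715 in MYH11, 1804, 1729.6 and 2037 in mDE and 1309, 1389.8 and 1440.0 in WT. The 3 genotypes did not overlap, with MYH11 lowest and mDE highest, and MYH11 was 1.78-fold lower than WT (log2 fold change -0.83 with SE 0.08, limma adjusted p = 2.32e-05). Nsdhl (ENSMUSG00000031349, chrX:72918557-72958514), the dehydrogenase that works between them, averaged 974 ± 49.1 in MYH11, 1070.0 ± 73.7 in mDE and 1011 ± 121 in WT and did not pass (log2 fold change -0.05 with SE 0.09, limma adjusted p = 0.674).

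Earlier in the pathway, Fdps and Idi1 fell. Fdps (ENSMUSG00000059743, chr3:89093588-89101959) makes farnesyl diphosphate, where sterol and isoprenoid synthesis part, and Idi1 (ENSMUSG00000058258, chr13:8885501-8892451) isomerises its substrate. Fdps stood at 1713, 2086 and 1493 in MYH11, 2597, 2592 and 2449 in mDE and 2852, 2402 and 2740.2 in WT, 1.51-fold lower in MYH11 than in WT without overlap (log2 fold change -0.60 with SE 0.11, limma adjusted p = 0.00137). Idi1 stood at 380.5, 379 and 280.0 in MYH11, 628, 605 and 506 in mDE and 545, 419 and 465 in WT, 1.38-fold lower in MYH11 than in WT (log2 fold change -0.46 with SE 0.15, limma adjusted p = 0.0246). The Idi1 call ended without MYH11 replicate 3, WT replicate 1 or WT replicate 3 (limma adjusted p from 0.0538 to 0.0897). Both genes have near-identical pseudogene copies in the annotation, and those present in the table held at most 41.1 normalised reads on average in a genotype. Other near-copies of both genes had no values. Among them, Gm43738 shares 1124 exon bases with Fdps on the same strand, so its part in the Fdps count could not be read.

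Smaller falls were seen for 3 further enzymes. Acat2 (ENSMUSG00000023832, chr17:12942890-12960747), the thiolase of the cytosol that joins acetyl-CoA units, averaged 544 ± 49.4 in MYH11, 703 ± 43.7 in mDE and 669.8 ± 28.6 in WT (log2 fold change -0.30 with SE 0.09, limma adjusted p = 0.0133 against WT). Pmvk (ENSMUSG00000027952, chr3:89454541-89469013), phosphomevalonate kinase, averaged 641 ± 62.6 in MYH11, 782 ± 32.7 in mDE and 782 ± 15.0 in WT (log2 fold change -0.29 with SE 0.08, limma adjusted p = 0.0124). Tm7sf2 (ENSMUSG00000024799, chr19:6062821-6068373), a sterol C14 reductase, averaged 157 ± 23.9 in MYH11, 199 ± 18.7 in mDE and 203 ± 11.2 in WT (log2 fold change -0.38 with SE 0.14, limma adjusted p = 0.0439). For all 3 the MYH11 libraries lay below every other library. The Tm7sf2 call ended in 10 of 21 alternatives, among them the removal of MYH11 replicate 1 or 3, mDE replicate 1 or any WT library (limma adjusted p from 0.0558 to 0.16), and the gene shares 532 exon bases with Vps51 on the same strand. Acat2 has a close copy, Acat3 (10.5 normalised reads in MYH11, 3.40 in mDE and 8.26 in WT). It also shares a stretch of 445 bases at 98.7% identity with Tcp1, whose level was far above that of Acat2 (13016 normalised reads in MYH11, 12400.5 in mDE and 14092 in WT). Reads could be split between Acat2 and either gene, so its fall is uncertain. The Acat2 call ended without MYH11 replicate 3 (limma adjusted p = 0.0552). Under scaling by total reads, Fdps, Msmo1 and Hsd17b7 were the falls that remained of the 8. Beside these falls, the cell cycle markers took 0.422% to 0.473% of reads in MYH11, 0.371% to 0.459% in mDE and 0.446% to 0.495% in WT, and their part was not tested.

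The enzymes that rose were Lss and Dhcr7. Lss (ENSMUSG00000033105, chr10:76531588-76557138), which closes the rings of lanosterol, stood at 653, 561 and 643 in MYH11, 441, 460.5 and 383 in mDE and 385, 411 and 423 in WT, 1.52-fold higher in MYH11 than in WT (log2 fold change 0.60 with SE 0.10, limma adjusted p = 0.000606). Dhcr7 (ENSMUSG00000058454, chr7:143823145-143848410), the reductase that makes cholesterol from 7-dehydrocholesterol, stood at 1533, 1284 and 1318 in MYH11, 1015, 1113 and 950.0 in mDE and 994, 925 and 973 in WT, 1.43-fold higher in MYH11 than in WT (log2 fold change 0.51 with SE 0.09, limma adjusted p = 0.000683). For both genes the MYH11 libraries were above all others, and the mDE and WT libraries overlapped. The pathway therefore held changes in both directions within the same 3 libraries.

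The other 8 enzymes did not pass in MYH11 against WT. Hmgcs1 (ENSMUSG00000093930, chr13:119690379-119708260), which makes HMG-CoA, had the smallest difference, at 1719, 1753 and 1736 in MYH11, 1953, 2156 and 1946 in mDE and 1673, 1748 and 1711 in WT (log2 fold change 0.02, 95% interval -0.10 to 0.14, limma adjusted p = 0.751). Mevalonate kinase Mvk (ENSMUSG00000041939, chr5:114444269-114460591) averaged 363 ± 15.6 in MYH11, 364 ± 21.9 in mDE and 306 ± 34.4 in WT, and mevalonate diphosphate decarboxylase Mvd (ENSMUSG00000006517, chr8:122433601-122443422) averaged 461 ± 51.9 in MYH11, 506 ± 42.5 in mDE and 432 ± 55.8 in WT (log2 fold change 0.25 and 0.09 against WT, limma adjusted p = 0.0627 and 0.530). The squalene synthase Fdft1 (ENSMUSG00000021273, chr14:63145150-63179578) averaged 1091 ± 99.9 in MYH11, 1299.6 ± 63.0 in mDE and 1152 ± 27.1 in WT (log2 fold change -0.08, limma adjusted p = 0.364). Of these 4 estimates for the mevalonate and squalene steps, 3 were above 0 and none of the 4 passed. Fdft1 shares 774 exon bases on the opposite strand with the cathepsin gene Ctsb, which averaged 44503 normalised reads in MYH11 and 22737 in WT, so its count is uncertain unless the strand was used.

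Squalene epoxidase Sqle (ENSMUSG00000022351, chr15:59315077-59331192), a rate-controlling enzyme, averaged 1187 ± 71.6 in MYH11, 1204 ± 129 in mDE and 1053 ± 106 in WT (log2 fold change 0.18 for MYH11 against WT, limma adjusted p = 0.159). The lanosterol demethylase Cyp51 (ENSMUSG00000001467, chr5:4081145-4104746) averaged 817 ± 75.1 in MYH11, 851 ± 28.2 in mDE and 708 ± 83.6 in WT (log2 fold change 0.21, limma adjusted p = 0.100). At the last steps, the sterol isomerase Ebp (ENSMUSG00000031168, chrX:8185329-8193512) averaged 2290.4 ± 103 in MYH11, 2008 ± 171 in mDE and 2153 ± 76.2 in WT, and the desaturase Sc5d (ENSMUSG00000032018, chr9:42251595-42264256) averaged 1299 ± 200.0 in MYH11, 1385 ± 129 in mDE and 1214 ± 169 in WT (log2 fold change 0.09 and 0.10, limma adjusted p = 0.290 and 0.559). All 4 had positive estimates that did not pass.

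**Figure D2:**
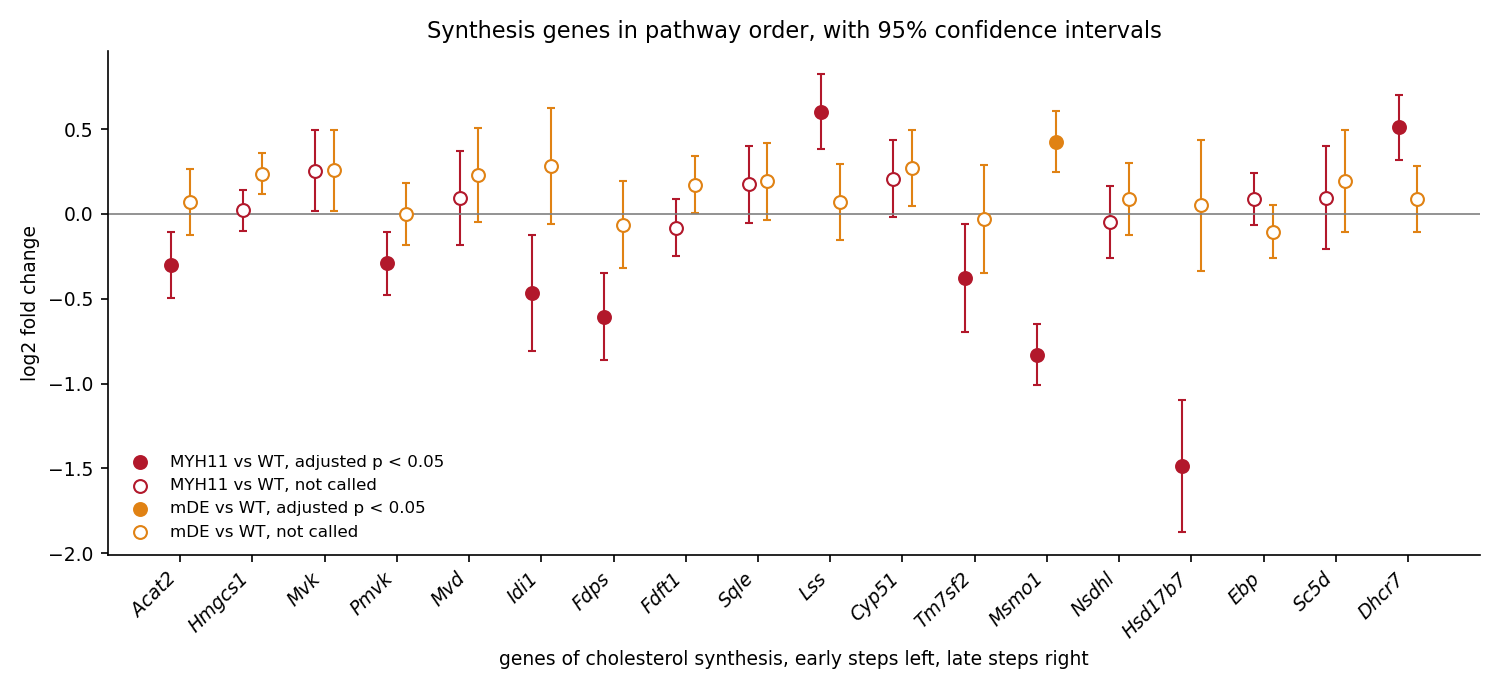
Log2 fold change against WT (y axis) of the 18 synthesis genes in pathway order, for MYH11 and mDE. Points are limma estimates with 95% confidence intervals, and filled points passed a limma adjusted p under 0.05. In MYH11 the estimates run from -1.49 (Hsd17b7) to 0.60 (Lss), with neighbours in opposite directions, and in mDE 1 point, Msmo1, is filled.

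**Figure D3:**
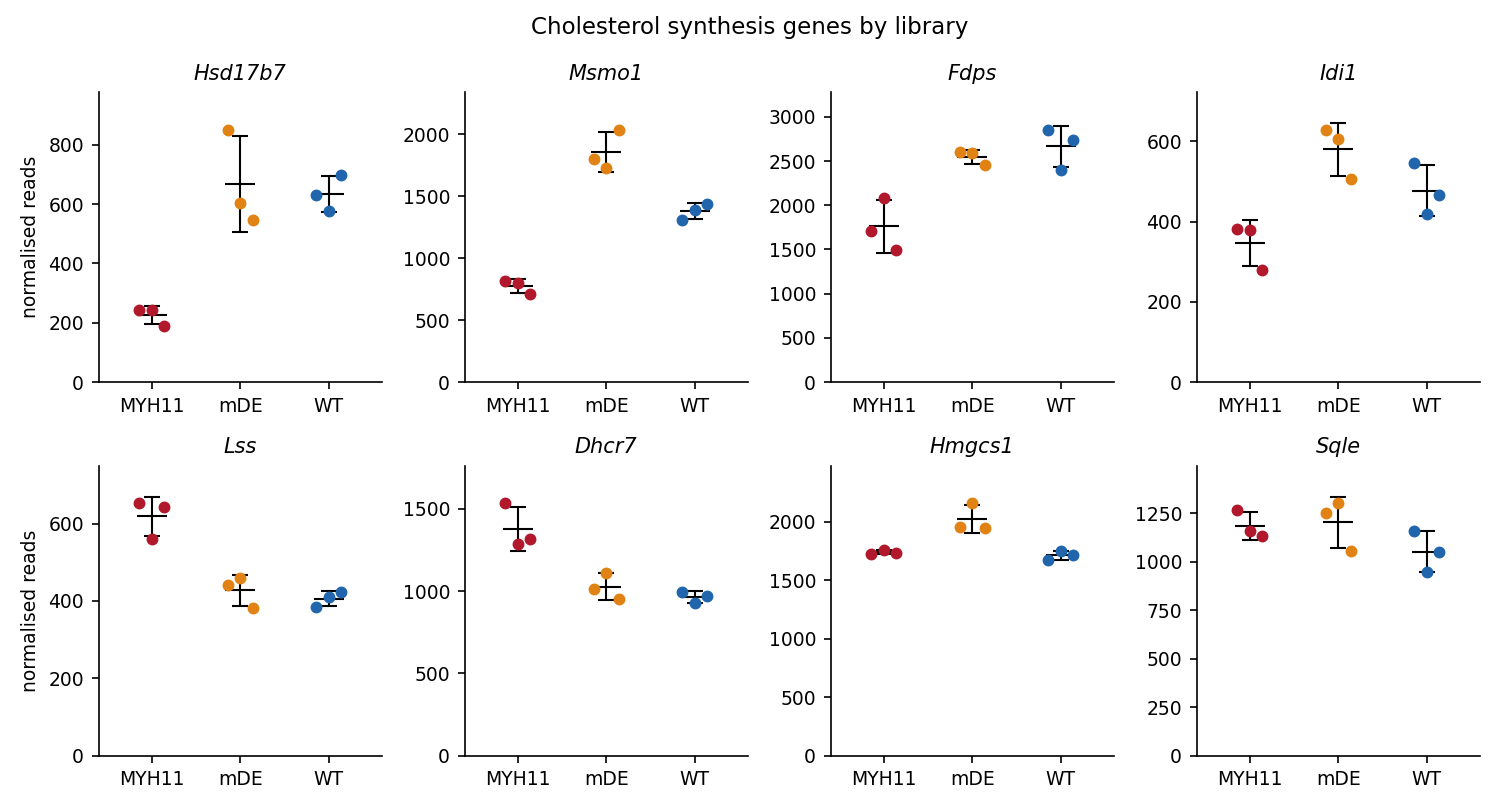
Normalised reads (y axis, linear, from 0) of 8 synthesis genes in each library of MYH11, mDE and WT, with the mean and SD of 3 libraries. The MYH11 libraries lie below all others for Hsd17b7, Msmo1, Fdps and Idi1, above all others for Lss and Dhcr7, and overlap the WT libraries for Hmgcs1. For Sqle the genotypes overlap.

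The promoters of synthesis genes carry known control elements, the sterol response element that SREBPs bind and the CCAAT box of NF-Y, a factor that works with SREBPs. The 250 bases before the start are shown for the lowest pair (Hsd17b7, Msmo1) and the highest gene (Lss) of the synthesis enzymes by fold change. They are also shown for Hmgcs1, the only gene matched to the sterol element among those whose windows were read. They come from RefSeq on GRCm38.p6, 5′ to 3′ on the strand of the gene, with letters of either motif in capitals, on either strand. The windows are chr1:169969206-169969455 (minus strand) for Hsd17b7, chr8:64733579-64733828 (minus) for Msmo1, chr10:76531355-76531604 (plus) for Lss and chr13:119690101-119690350 (plus) for Hmgcs1.
Hsd17b7: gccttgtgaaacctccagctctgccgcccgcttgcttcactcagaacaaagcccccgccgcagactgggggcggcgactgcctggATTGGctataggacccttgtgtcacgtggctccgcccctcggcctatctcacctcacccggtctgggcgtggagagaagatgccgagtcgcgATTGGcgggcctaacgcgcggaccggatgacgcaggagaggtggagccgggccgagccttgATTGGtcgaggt
Msmo1: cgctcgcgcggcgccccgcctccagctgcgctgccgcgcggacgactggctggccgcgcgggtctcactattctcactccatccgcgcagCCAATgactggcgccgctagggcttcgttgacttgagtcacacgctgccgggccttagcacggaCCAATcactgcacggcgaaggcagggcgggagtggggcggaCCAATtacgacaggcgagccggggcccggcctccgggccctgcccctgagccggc
Lss: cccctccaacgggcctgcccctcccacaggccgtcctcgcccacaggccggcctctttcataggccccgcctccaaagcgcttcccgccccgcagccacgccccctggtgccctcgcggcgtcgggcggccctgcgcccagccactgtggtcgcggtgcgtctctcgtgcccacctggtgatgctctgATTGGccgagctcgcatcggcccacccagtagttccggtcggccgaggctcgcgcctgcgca
Hmgcs1: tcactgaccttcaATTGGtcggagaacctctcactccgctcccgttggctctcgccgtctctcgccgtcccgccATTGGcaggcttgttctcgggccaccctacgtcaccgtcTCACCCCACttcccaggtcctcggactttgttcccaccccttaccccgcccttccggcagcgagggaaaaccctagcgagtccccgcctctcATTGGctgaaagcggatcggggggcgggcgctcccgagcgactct
The letters searched were TCACNCCAC for the sterol response element and CCAAT for the CCAAT box, on both strands of windows that run from 250 bases before the start to 50 after it, and the motifs did not overlap in the windows shown. Windows were read for 25 of the 31 genes. Fdps, Fdft1, Sqle, Abcg1, Stard4 and Npc1 were not matched. CCAAT letters lay in the windows of 20 of the 25, made up of 14 of 15 synthesis genes, 4 of 5 sterol sensing genes, 1 of 4 export and storage genes and 1 of 1 transport gene, and in those of 41.1% of all 27025 genes with a window. The sterol element letters lay in 1 of the 25, Hmgcs1, with their first base 137 bases before the start, and in 1.44% of all genes. Hsd17b7 and Msmo1, which fell, and Lss, which rose, all held CCAAT letters, at 3, 3 and 1 places. A match is a description of letters and not a binding site.

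Sums over each role were read in every library. The 5 export and storage genes together held 19506, 15858 and 21325 normalised reads in MYH11, 8362, 9031 and 10354 in mDE and 7824, 8722 and 7879 in WT, and the 3 transport genes held 23351, 20685 and 22401 in MYH11, 11465, 12354 and 12916 in mDE and 11894, 10917 and 11846 in WT. The 5 sterol sensing genes held 14849, 13426 and 13849 in MYH11, 11849, 13372 and 12076 in mDE and 12124, 11133 and 11770.0 in WT. MYH11 was highest on these 3 sums without overlap. The 18 synthesis genes held 17265, 17045 and 15704 in MYH11, 19648, 19784 and 19050.4 in mDE and 17983, 17294 and 18485 in WT, lowest in MYH11 by a narrow margin and highest in mDE. As shares of all reads MYH11 was no longer lowest on that sum, at 0.0416% to 0.0445% in MYH11, 0.0392% to 0.0442% in mDE and 0.0380% to 0.0416% in WT. The mDE range overlapped those of MYH11 and WT. Every MYH11 share lay above every WT share, by a margin as narrow as 0.04164% against 0.04161%, so the order of MYH11 and WT turned.

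**Figure D4:**
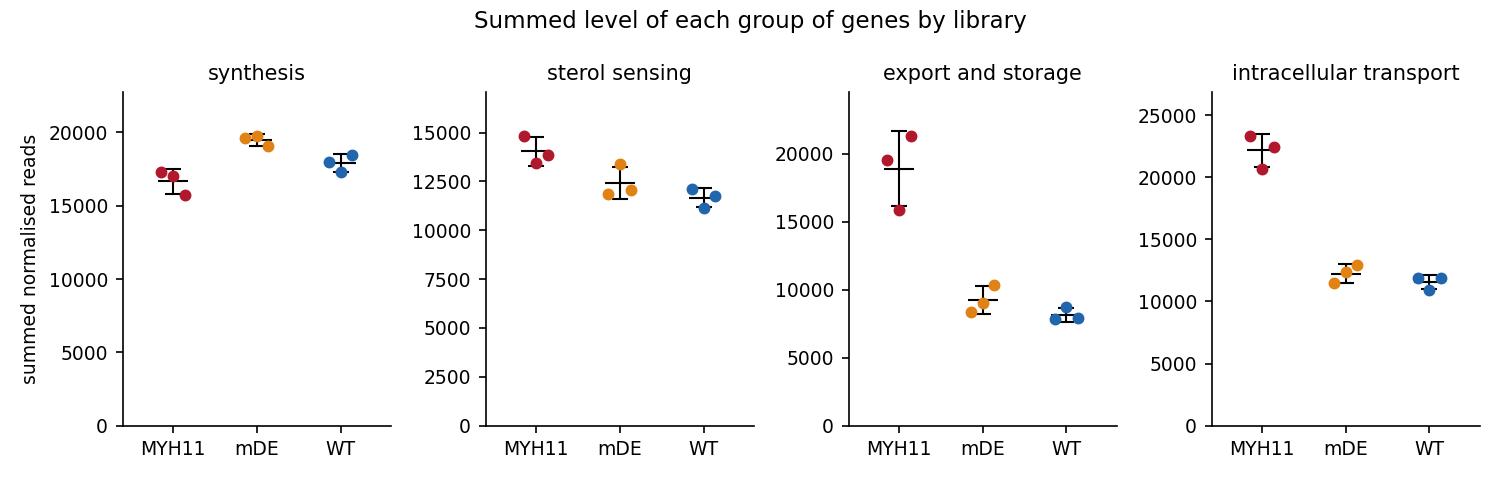
Summed normalised reads (y axis, linear, from 0) of the synthesis, sterol sensing, export and storage, and intracellular transport genes in each library of MYH11, mDE and WT, with the mean and SD of 3 libraries. The sums of the 5 export and storage genes and the 3 transport genes are higher in all MYH11 libraries than in any other library, while the synthesis sums lie close together.

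Levels of different genes were compared per length, as TPM, which divides the recovered reads by the summed exon length and scales the result within a library. In WT the highest was Npc2 at 83.7 ± 6.09 TPM, followed by Nr1h2 at 49.3 ± 2.55 and Ebp at 48.8 ± 1.68, which did not differ beyond their spread. The lowest in WT were Lss at 1.97 ± 0.00882, Abca1 at 2.11 ± 0.263 and Tm7sf2 at 2.42 ± 0.237 TPM. Within its spread Abca1 overlapped both other genes. The exon length joins all annotated transcripts of a gene (10787 bases for Lss, 4403 for Tm7sf2), so these ranks depend on it. Npc2 was also the highest in MYH11 and mDE, whereas the lowest in MYH11 was Tm7sf2 at 2.93 ± 0.409 TPM. Abca1 thus ranked among the lowest of the set in WT and stood at 24.6 ± 8.32 TPM in MYH11. TPM is a share within a library, so its differences between genotypes are not read as changes in level. Hmgcs1, for example, stood at 31.1 ± 1.27 TPM in MYH11 and 19.5 ± 0.777 in WT, with normalised reads 1.01-fold apart.

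The second comparison set the mDE allele against the normal genotype. In mDE 1 of 31 genes, Msmo1, rose against WT, 0 fell and 30 did not pass, which is 3.23% against 1.24% of all genes (0.821% up, 0.42% down). Msmo1 was 1.35-fold higher, with no overlap between the libraries given above (log2 fold change 0.43 with SE 0.08, limma adjusted p = 0.0426), but this call ended in 11 of 22 alternatives, which included the removal of any mDE or WT library or of MYH11 replicate 1 or 3 (limma adjusted p from 0.0536 to 0.138 in those 11). The edgeR quasi-likelihood and DESeq2 Wald tests on recovered reads also called it. Of the 31 estimates 23 were positive, with a median of 0.11 against 0.01 for all genes. At an unadjusted p under 0.05 there were 10 up and 1 down, a threshold that 19.8% of all genes passed in either direction. The libraries did not overlap for 10 genes (32.3%), 9 higher and 1 lower in mDE, against 26.1% of all genes in either direction. The estimates share the same libraries and are not independent, and the calls over all genes also leaned upward.

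Most estimates in mDE were small. Hmgcs1 was 1.18-fold higher without overlap but did not pass (log2 fold change 0.24 with SE 0.05, limma adjusted p = 0.0715), and Npc1 was 1.27-fold higher without overlap (log2 fold change 0.35 with SE 0.11, limma adjusted p = 0.152). Scap was 1.18-fold lower and likewise did not pass (log2 fold change -0.24 with SE 0.06, limma adjusted p = 0.0974). The DESeq2 Wald test on recovered reads called 3 genes up (Msmo1, Hmgcs1 and Soat1) and 1 down (Scap). Abca1, Abcg1 and Nr1h3, so far above WT in MYH11, had log2 fold changes of 0.13, -0.06 and -0.45 in mDE, with 95% intervals of -0.38 to 0.64, -0.58 to 0.46 and -0.96 to 0.07 (limma adjusted p = 0.780, 0.904 and 0.318). Hsd17b7 was at 0.05 (-0.34 to 0.44, limma adjusted p = 0.891). The upper ends for Abca1 and Abcg1 lie below the estimates in MYH11.

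The third comparison set the fusion alleles against each other. MYH11 differed from mDE for 20 of 31 genes, 11 higher and 9 lower in MYH11 (64.5%), against 55.6% of all genes (29.6% higher, 26.0% lower). The libraries did not overlap for 22 genes (71.0%), against 62.2% of all genes, and the median log2 fold change was -0.06 against 0.03 for all genes. Scaling by total reads raised the median of all genes by 0.26 and gave 12 higher and 3 lower genes here, with 7388 higher and 2372 lower of all genes in place of 4718 and 4151. The WT and mDE comparisons share the MYH11 libraries, so their values are given side by side and are not independent.

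All genes of export, storage and transport that rose against WT were also higher than in mDE, with folds of 6.81-fold for Abca1, 5.68-fold for Abcg1, 2.95-fold for Nr1h3, 1.55-fold for Soat1, 2.23-fold for Npc1 and 1.91-fold for Npc2 (limma adjusted p from 4.65e-06 to 0.00053). Srebf1 was 1.62-fold higher (log2 fold change 0.70 with SE 0.08, limma adjusted p = 8.76e-05), whereas Insig1 did not pass (log2 fold change 0.29 with SE 0.12, limma adjusted p = 0.0776). Among the enzymes, Msmo1 had 2.39-fold lower reads in MYH11 than in mDE (log2 fold change -1.26 with SE 0.08, limma adjusted p = 2.55e-06) and Idi1 1.67-fold lower (log2 fold change -0.75 with SE 0.15, limma adjusted p = 0.00233). Fdps (-0.54), Acat2 (-0.37), Pmvk (-0.29), Fdft1 (-0.26) and Hmgcs1 (-0.22) were also lower on the log2 scale (limma adjusted p from 0.00281 to 0.0158). Under scaling by total reads none of these 5 passed, Hmgcs1 and Fdft1 had estimates of 0.05 and 0.01, and the Fdft1 call also ended without mDE replicate 1. Lss (0.53) and Dhcr7 (0.42) were higher (limma adjusted p = 0.00144 and 0.00229). Ebp and Scap were higher at the threshold (limma adjusted p = 0.0381 and 0.0375), and their calls ended in 10 and 11 of 22 alternatives (limma adjusted p up to 0.128 and 0.124). For Ebp these included the removal of MYH11 replicate 1 or 3, mDE replicate 1 or 2, or WT replicate 2 or 3, and for Scap the removal of MYH11 replicate 1 or 3, mDE replicate 1 or 3, or WT replicate 3. Nr1h2 was lower (log2 fold change -0.25 with SE 0.05, limma adjusted p = 0.00233), at 0.01 when scaled by total reads.

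Neighbouring pathways were read through 6 further lists, and their counts in MYH11 against WT stand beside 59.8% of all genes called (32.0% up, 27.8% down). In the oxysterol and liver X receptor list, 7 rose and 0 fell of 11 tested in MYH11 against WT, a share called near that of all genes, with 1 listed gene, Ch25h, too low to test (median log2 fold change 0.92). Hsd3b7, of bile acid synthesis, averaged 2773 ± 219 normalised reads in MYH11, 907 ± 111 in mDE and 741 ± 21.0 in WT, 3.74-fold higher in MYH11 than in WT (limma adjusted p = 5.8e-07). Cyp27a1, the sterol 27-hydroxylase that makes a ligand of liver X receptors, averaged 664 ± 101 in MYH11, 133 ± 6.74 in mDE and 88.3 ± 16.0 in WT (7.52-fold, limma adjusted p = 9.54e-07). Rxra, the dimer partner of these receptors, averaged 1753 ± 217 in MYH11, 634 ± 39.1 in mDE and 480.5 ± 40.9 in WT (3.65-fold, limma adjusted p = 1.07e-06). These genes thus rose in the libraries in which Abca1, Abcg1 and Nr1h3 rose.

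In the list of lipoprotein uptake and sterol transport, 8 rose and 3 fell of 15 in MYH11 against WT, where 32.0% of all genes rose and 27.8% fell (median 0.35). Msr1, a scavenger receptor of macrophages, averaged 1072 ± 93.0 in MYH11, 62.9 ± 15.9 in mDE and 58.9 ± 14.4 in WT (18.2-fold, limma adjusted p = 7.28e-07). Lrp1, a lipoprotein receptor, averaged 10649.5 ± 482 in MYH11, 1438 ± 156 in mDE and 1195 ± 61.0 in WT (8.91-fold, limma adjusted p = 5.55e-08). Both receptor genes thus had their highest levels in MYH11.

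Of 14 fatty acid synthesis genes, 8 rose and 2 fell in MYH11 against WT, set beside the same 32.0% and 27.8% of all genes (median 0.46). Scd2, a stearoyl-CoA desaturase, averaged 20699.6 ± 1783 in MYH11, 6572 ± 1241 in mDE and 6935 ± 650.3 in WT (2.98-fold, limma adjusted p = 7.86e-06), and Elovl6, a fatty acid elongase, averaged 1845 ± 341 in MYH11, 755 ± 47.3 in mDE and 720.4 ± 88.7 in WT (2.56-fold, limma adjusted p = 2.54e-05). Mid1ip1, an activator of acetyl-CoA carboxylase, fell to 1383 ± 151 in MYH11, against 3476 ± 249 in mDE and 3172 ± 277 in WT (2.29-fold lower than WT, limma adjusted p = 6.57e-06). The list of SREBP processing and reductase turnover had 3 rises and 1 fall of 8, fewer calls than the 59.8% of all genes (median 0.05). Mbtps1, the site-1 protease that cleaves SREBPs, averaged 5357 ± 268 in MYH11, 3946 ± 50.7 in mDE and 3956 ± 60.2 in WT (1.35-fold, limma adjusted p = 5.02e-05). Pgrmc1, a haem-binding membrane protein, was 1.40-fold higher in MYH11 than in WT (limma adjusted p = 0.000582).

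The isoprenoid branch, which uses the product of Fdps, had 3 rises and 5 falls of 13, near the 59.8% of all genes called (median -0.13). Dhdds, a subunit of the enzyme for dolichol chains, averaged 2811 ± 109.8 in MYH11, 4910.4 ± 105 in mDE and 4511 ± 193 in WT (1.61-fold lower in MYH11 than in WT, limma adjusted p = 4.86e-06), and Pdss2, of coenzyme Q synthesis, was 1.63-fold lower (limma adjusted p = 6.48e-05). Pggt1b, a subunit of the enzyme that attaches geranylgeranyl groups to proteins, was 1.87-fold higher (limma adjusted p = 6.94e-05). Of the 5 ketone body genes, 3 rose and 2 fell, against 32.0% up and 27.8% down among all genes (median 0.26). Bdh1, which makes 3-hydroxybutyrate, averaged 73.5 ± 9.49 in MYH11, 142 ± 37.7 in mDE and 321 ± 46.3 in WT, lower than WT in MYH11 (4.37-fold, limma adjusted p = 3.15e-05) and in mDE (2.26-fold, limma adjusted p = 0.0370). The mDE call of Bdh1 ended in 8 of 22 alternatives, among them the removal of MYH11 replicate 1 or 3, mDE replicate 1 or 3 or any WT library (limma adjusted p up to 0.142). Acat1, the thiolase of mitochondria, was 1.43-fold higher in MYH11 than in WT (limma adjusted p = 0.000463).

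Against mDE, MYH11 gave 7 rises and 1 fall of 11 in the oxysterol list, 7 and 5 of 15 in the uptake list, 8 and 3 of 14 in the fatty acid list, 3 and 2 of 8 in the processing list, 2 and 4 of 13 in the isoprenoid list and 3 and 2 of 5 in the ketone list, where 29.6% of all genes were higher and 26.0% lower (55.6% called). The named genes of the first 5 lists were the same as against WT. In the ketone list Oxct1, which activates acetoacetate, was named in place of Bdh1, at 7719 ± 375 in MYH11, 5792 ± 98.8 in mDE and 6453 ± 599 in WT (1.33-fold higher in MYH11 than in mDE, limma adjusted p = 0.000848).

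**Figure D5:**
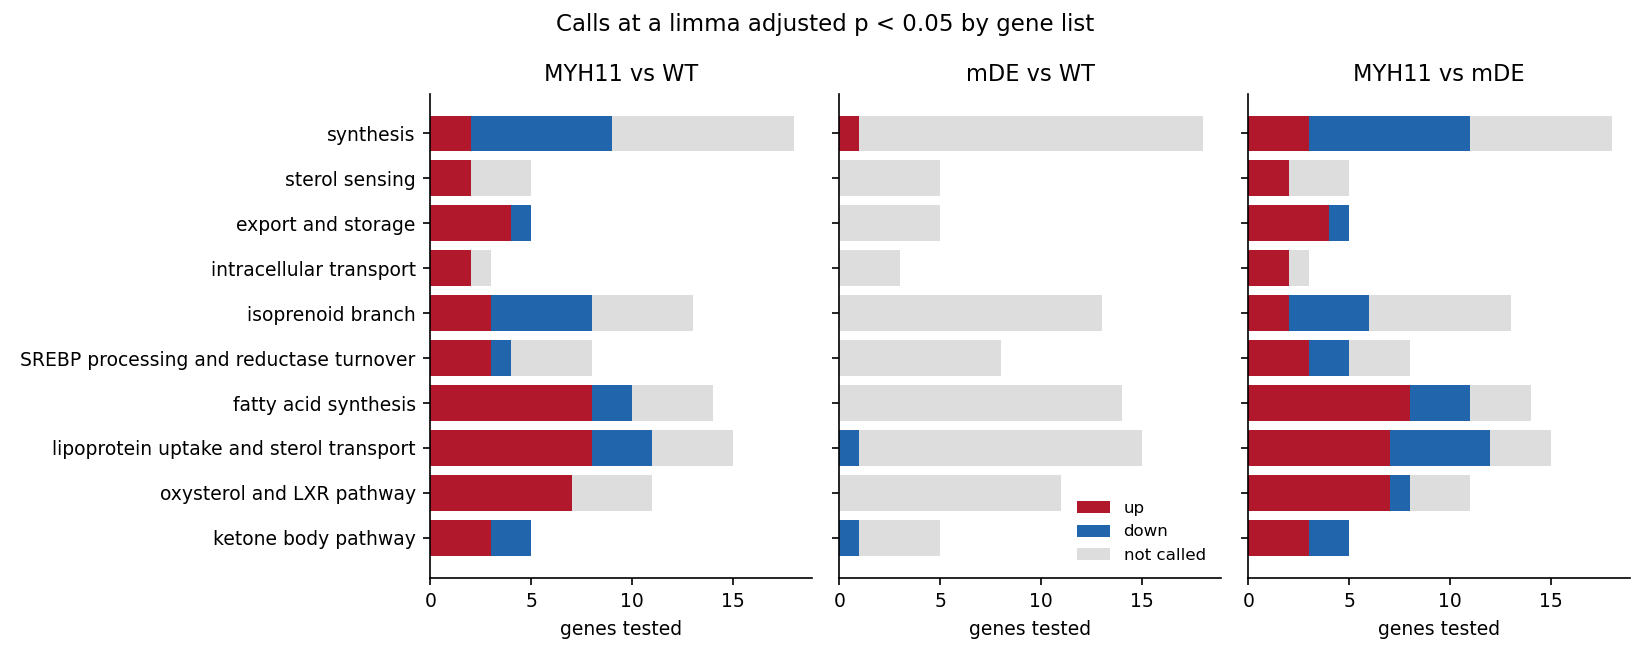
Number of genes tested (x axis) that were called up, called down or not called at a limma adjusted p under 0.05 in each role group and neighbouring list (rows), for MYH11 against WT (left), mDE against WT (middle) and MYH11 against mDE (right). The synthesis row has 7 falls and 2 rises in MYH11 vs WT, the export and storage row 4 rises and 1 fall, and the middle panel holds 3 calls in all.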

How the data were processed

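Total RNA of 9 mouse bone marrow libraries was sequenced. Per the submitters' processing notes, CASAVA 1.8.2, STAR 2.4, RSEM and DESeq2 were used with GRCm38, with no role or order stated. The deposited table lists for each gene and library a normalised signal, which the authors obtained from gene counts with 1 size factor per library (as the recovered whole reads show). Whole reads were recovered for 100% of values (relative tolerance 1e-06), and libraries held 39300366 to 50073097 reads. The fold change and p-value columns of the table name no comparison and were not used. Of 43629 identifiers, 42462 had a symbol and 42548 GENCODE M21 coordinates, and 17919 genes were 0 in all libraries.

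Groups are the 3 genotypes of the labels. Genes were kept by filterByExpr (edgeR 4.0.16), which left 15948. log2(value + 1) was tested with limma-trend (limma 3.58.1, R 4.3.3; two-sided, genotype as the only term, 6 residual degrees of freedom), adjusted by Benjamini-Hochberg over the genes tested, threshold 0.05. Log2 fold changes are on that scale, folds are ratios of group means of normalised reads, and intervals are 95%. The number of libraries limits the precision more than depth does. Alternatives were TMM, upper-quartile and DESeq2 (1.42.0) scaling, no filter, 5 CPM in 3 libraries, edgeR quasi-likelihood, DESeq2 Wald and voom tests on recovered reads, pseudocounts of 0.5 and 4, only the groups compared, a replicate block, and leaving out each library. Scaling by total reads was added after the data were seen. The fit was also run on simulated counts, which were scaled by library totals and not by the deposited size factors. The outcome of that run is not given here.

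All 31 genes are described. From each neighbouring list up to 3 called genes with the smallest adjusted p are named per comparison, apart from some that are not reported here. Members and lists were chosen with earlier results of these data known. Ly6g, Csf1r, Cd68, Cx3cr1, Vcam1 and Ly6c2 were picked from the marker lists after their values were seen. Genes of the pathway outside these lists are not analysed here. Overlapping exons were read from GENCODE M21.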

Additional observations from a re-analysis of the deposited data

How the results depend on the processing

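Of the calls made with the deposited scaling, 13 of 18 in MYH11 vs WT, 0 of 1 in mDE vs WT and 12 of 20 in MYH11 vs mDE held in all alternatives run. Leaving out 1 library gave 10 to 11 rises and 4 to 8 falls in MYH11 vs WT, with 4 falls without MYH11 replicate 3 and 5 without WT replicate 3, 0 to 1 rises in mDE vs WT, and 9 to 11 rises and 8 to 10 falls in MYH11 vs mDE. In mDE vs WT the single rise (Msmo1) became 0 with no filter, with only the groups compared and with the replicate block, and the DESeq2 Wald test gave 3 rises and 1 fall. Scaling by total reads gave 19 rises and 3 falls in MYH11 vs WT and 12 rises and 3 falls in MYH11 vs mDE. Among the called genes, it turned the sign of Nr1h2 in MYH11 vs WT (0.0918) and, in MYH11 vs mDE, of Hmgcs1 (0.0466), Fdft1 (0.0067) and Nr1h2 (0.0149). Genes called under neither scaling also changed sign, 4 in MYH11 vs WT, 9 in MYH11 vs mDE and 1 in mDE vs WT. That setting shifted the median of all genes by 0.23 in MYH11 vs WT, 0.26 in MYH11 vs mDE and -0.03 in mDE vs WT. The cause of these shifts and of the other changes was not tested. Libraries with the same replicate number did not deviate together in every pair (r from -0.15 to 0.12). The labels do not say whether the numbers pair libraries, and these correlations cannot exclude it. With the replicate block 10 rose and 7 fell in MYH11 vs WT, 0 rose in mDE vs WT, and 9 rose and 9 fell in MYH11 vs mDE. With 3 libraries a genotype, small differences are limited by the spread between libraries and not by depth.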
